A study of Mus musculus with 2 samples.

Results

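The 10 genes described here carry the insulin signal from the cell surface to the protein kinase Akt and the muscle glucose transporter: Insr, Irs1, Irs2, Pik3r1, Pik3ca, Pik3cb, Pdpk1, Akt1, Akt2 and Slc2a4. They were chosen by name, as the probes that carry 1 of these gene names in both scanner files, and they are 10 of the 37008 names on the array. They had 18 of its 56605 probes, each printed as 1 spot. Of the 18 probes, 16 were well above background on both arrays, which is called measured below, and each of the 10 genes had at least 1 measured probe.

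RNA came from C2C12 cells, mouse myoblasts that can fuse to muscle fibre-like myotubes, and per the labels' protocols the cells had been differentiated in 2% horse serum. One culture was given 4 µg of exosomes, which are small vesicles that cells release, from a KPC pancreatic cancer line for 24 h (KPC-exo). That line was derived from tumour of mice with the alleles KrasLSL-G12D/+ and Trp53LSL-R172H/+ and with Pdx1-Cre, a recombinase under a promoter active in the pancreas. The control culture was given exosomes of the MPDC line, a mouse pancreatic ductal epithelial line, for 24 h (MPDC-exo), at a dose not given in the sources used here. Both cultures therefore received exosomes, and no culture without them was analysed here. There was 1 array per group, so no difference below has a replicate check, and none is tested.

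Insulin binds its receptor, a tyrosine kinase, which phosphorylates insulin receptor substrates. These recruit phosphoinositide 3-kinase, a dimer of a regulatory and a catalytic subunit, whose lipid product brings the kinases PDK1 and Akt to the membrane, where PDK1 phosphorylates Akt. In muscle, Akt activity moves the transporter GLUT4 to the cell surface, so that glucose enters, and it restrains the FoxO factors that drive protein breakdown genes. Much of this control acts on proteins by phosphorylation and movement, which an mRNA array does not measure.

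The signal at the 75th percentile of the probes was 380 units in the MPDC-exo culture and 639 in the KPC-exo culture, and levels below are log2 signals minus that percentile of the same array. A difference is KPC-exo minus MPDC-exo on that log2 scale. Markers of myotubes were well above background for 13 of 13 genes on both arrays, with log2 differences from -0.43 to 0.50. Among the markers of other cell types, 1 of 6 epithelial, 1 of 4 adipocyte, 3 of 4 fibroblast, 3 of 4 macrophage and leukocyte and 1 of 4 endothelial genes were measured. Of the macrophage and leukocyte genes, Csf1r had a log2 difference of -0.875, Cd68 0.63 and Ptprc 0.29, while Adgre1 was not measured. The measured markers of the other types lay between -0.07 and 0.34. Both cultures were of the C2C12 line, and the part of other cell types in the results below was not tested. In a culture measured as a whole, fewer cells of a type, such as fused cells, and less RNA per cell cannot be told apart. Local background was flagged by the scanner software at 3.87% of MPDC-exo spots and 10.68% of KPC-exo spots. The arrays also differed along transcripts. Among 2895 transcripts with measured probes over 500 bases apart, a distance chosen after the data were seen, the probe nearest the 5′ end had the lower difference in 66.8%. The position of a probe and its brightness were not separated.

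At the brightest measured probe of each gene and relative to the MPDC-exo array, Insr lay lower by 1.95-fold, Pik3r1 lay lower by 1.87-fold, Irs2 lay higher by 1.51-fold, and the other 7 genes were within 1.5-fold. The catalytic subunits Pik3ca and Pik3cb, the kinase gene Pdpk1 and the substrate gene Irs1 had log2 differences between 0.0045 and 0.10. Akt1, Akt2 and Slc2a4 had differences of -0.14, -0.18 and -0.17. A pair of further probes, at upstream positions in Akt1 and Akt2, lay past 1.5-fold lower although the brightest probes of both genes did not. All of these are relative to the 75th percentile: centring on the spike-in RNAs in place of it adds 1.02 to every value, under which Insr is at 0.061, Pik3r1 at 0.12, Akt1 at 0.88, Akt2 at 0.84 and Slc2a4 at 0.85. The upstream Akt1 probe is then at -0.84 and the upstream Akt2 probe at 0.050.

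Shown here are 5 coding probes of members with a measured probe past 1.5-fold, each 60 bases long and written 5′ to 3′ as printed on the array. The first 4 lay past 1.5-fold. The fifth, of Insr, was not well above background and no value rests on it, while the measured Insr probe at base 4745 is not shown. They were chosen, after their values were seen, as those that lie in coding sequence, judged from textbook knowledge of the proteins, because the protein sequences and an exon annotation were not used here. Each has at least 1 reading frame with no stop codon. Capitals in the Akt1 probe mark its start codon, at base 4 of the probe.
Irs2: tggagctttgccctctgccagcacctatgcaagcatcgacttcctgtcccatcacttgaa
Pik3r1: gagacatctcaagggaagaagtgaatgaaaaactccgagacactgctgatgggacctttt
Akt1: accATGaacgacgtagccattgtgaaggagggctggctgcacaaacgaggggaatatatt
Akt2: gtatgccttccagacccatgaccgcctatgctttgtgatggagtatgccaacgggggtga
Insr: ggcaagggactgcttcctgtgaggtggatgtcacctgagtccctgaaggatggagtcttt

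In mm9 coordinates, as the files give them, the Irs2 probe lies at chr8:11004490-11004549 and the Insr probe at chr8:3159473-3159532, both on the minus strand. The Akt2 probe lies at chr7:28418226-28418285 on the plus strand. The Pik3r1 probe spans chr13:102459406-102460448 and the Akt1 probe chr12:113900509-113909775, both on the minus strand. These last 2 stretch over 1043 and 9267 genomic bases for 60 bases of probe, so each bridges at least 1 intron. None of the 5 shared a run of 20 bases with another probe on the array.

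**Figure D1:**
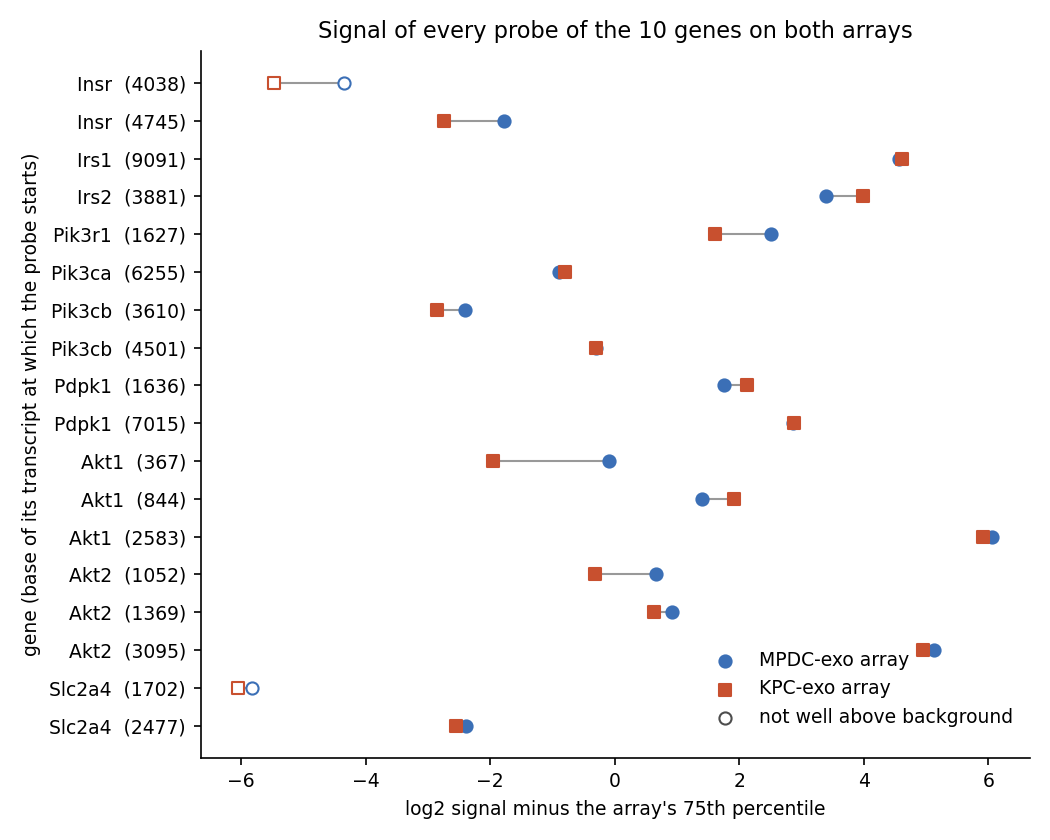
Log2 signal minus the array's 75th percentile (horizontal axis) at each of the 18 probes of the 10 genes (vertical axis, with the base of the transcript at which the probe starts), MPDC-exo as circles and KPC-exo as squares, open where the probe was not well above background. The widest gap among measured probes is that of Akt1 at base 367, and levels of different probes are not comparable with each other.

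Insr, which encodes the insulin receptor, had 2 probes. At the probe starting at base 4745 of its transcript, on chromosome 8 from 3155472 to 3155531, the MPDC-exo signal was 111 ± 13.0 units (error by the scanner software) and the KPC-exo signal 95.5 ± 13.6 units. The signal itself was thus nearly level while the 75th percentile was higher on the KPC-exo array, and the log2 levels were -1.78 and -2.74. The log2 difference was -0.96, with a software error of 0.27. The coding probe shown above, which starts at base 4038, gave 18.6 and 14.4 units, neither of them well above background. The difference in Insr therefore rests on 1 dim spot per array. Among the dimmest 25% of measured genes, which hold Insr, 7.6% lay at least 1.5-fold lower. With normexp background correction, a model that treats dim signal more cautiously, the difference was -0.68, and a stricter filter on dim probes left Insr out.

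Irs1 and Irs2 encode the main substrates through which the receptor reaches phosphoinositide 3-kinase, and each had 1 probe. The Irs1 probe, at base 9091 of the transcript, gave log2 levels of 4.57 with MPDC-exo and 4.61 with KPC-exo. The difference of 0.03 was smaller than its software error of 0.20, and it was -0.02 with the percentile taken over detected probes. Its sign was kept in 6 of 10 alternatives other than spike-in centring. The Irs2 probe, at base 3881, gave 3988 units with MPDC-exo and 10103 units with KPC-exo, or log2 levels of 3.39 and 3.98. Irs2 was the 1 member at least 1.5-fold higher, with a difference of 0.59 and a software error of 0.20. Among the brightest 25% of measured genes, to which Irs2 belongs, 0.663% were that much higher. The value lies at the edge of the threshold: it was between 0.53 and 0.55 with quantile normalization, loess, the series value table, median centring and the percentile over detected probes, which is under 1.5-fold.

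Pik3r1 encodes the regulatory subunit p85 alpha, which holds the catalytic subunit and binds the phosphorylated substrates. Its 1 probe, at base 1627, gave 2177 ± 218 units with MPDC-exo and 1958 ± 196 units with KPC-exo, or log2 levels of 2.52 and 1.62. The difference was -0.90, with a software error of 0.20, and it lay between -0.78 and -0.98 in every alternative other than spike-in centring. This probe was not dim: 57.5% of measured genes had a lower mean signal, and among the 25% of measured genes that come second in brightness and hold Pik3r1, 1.63% lay at least 1.5-fold lower. No second probe of Pik3r1 was on the array, so a difference along its transcript could not be seen and its part in the value was not tested.

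The catalytic subunits showed smaller differences. Pik3ca, which encodes p110 alpha, gave log2 levels of -0.89 and -0.79 at its 1 probe, at base 6255, a difference of 0.10 with a software error of 0.21. Pik3cb, which encodes p110 beta, had 2 measured probes. At base 4501 the levels were -0.31 and -0.30 and the difference 0.0045 (-0.08 with cyclic loess). That sign was kept in 6 of 10 alternatives other than spike-in centring. At base 3610 of the same transcript the levels were -2.40 and -2.85 and the difference -0.45, with a software error of 0.29. The upstream probe thus had the lower value, by 0.45, although both stayed within 1.5-fold. In Pdpk1, which encodes the kinase PDK1 that phosphorylates Akt, the order was the opposite. Its probe at base 7015 had levels of 2.86 and 2.89 and a difference of 0.02 (-0.04 with cyclic loess). That sign was kept in 5 of 10 alternatives other than spike-in centring. Its second probe, at base 1636, had 1.76 and 2.12 and a difference of 0.36. These positions are counted on different transcript variants, but in the genome the second probe lies further upstream, since the gene is on the minus strand.

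Akt1, the most widely expressed of the Akt kinases, had 3 measured probes that did not give 1 answer. The probe at base 2583, on chromosome 12 from 113892079 to 113892138, gave 25415 and 38611 units, or log2 levels of 6.06 and 5.92. Its difference was -0.14. The start codon probe shown above, at base 367 of the same transcript, gave 357 ± 36.3 units with MPDC-exo and 165 ± 19.1 units with KPC-exo, or log2 levels of -0.09 and -1.95. The difference was -1.86 with a software error of 0.22, which is 3.63-fold lower, and the local background of the KPC-exo spot was flagged. Among measured probes as dim as this one, within the dimmest 25% of genes, 10.2% lay at least 1.5-fold lower. The third probe, on chromosome 12 from 113894094 to 113894153, is assigned to another transcript model and gave 1004 and 2402 units. Its difference was 0.51. The 3 probes therefore ran from 3.63-fold lower to 1.43-fold higher, a range of 2.37 on the log2 scale. Among the 5775 genes with at least 2 measured probes, the median range was 0.35, and 10 genes, Akt1 included, reached 2.37. With normexp the upstream probe was at -1.48, and with background-flagged spots left out, or under the stricter filter on dim probes, it had no value.

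Akt2, the form most tied to insulin-stimulated glucose uptake, also had 3 measured probes, and their differences ran in the order of their positions. At base 3095 the levels were 5.13 and 4.95 and the difference -0.18. At base 1369, counted on another transcript variant, the levels were 0.92 and 0.63 and the difference -0.30. At base 1052, the coding probe shown above, the signal was 601 ± 60.5 units and 514 ± 52.3 units, the levels were 0.66 and -0.31, and the difference was -0.97 with a software error of 0.21. The most upstream probe was 1.96-fold lower and the most downstream 1.14-fold lower, so the probe chosen decides whether Akt2 passes 1.5-fold. Of measured probes in the same signal range as the one at base 1052, 5.45% lay at least 1.5-fold lower. Local background was flagged at both upstream probes, for MPDC-exo at base 1052 and for KPC-exo at base 1369. With background-flagged spots left out, neither had a value, and only the probe at base 3095 remained, at -0.18. The probe at base 3095 shares 47 bases with a probe assigned to a clone, which had a difference of -0.14.

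Slc2a4 encodes GLUT4, the transporter that insulin brings to the muscle surface. At base 2477 its signal was 73.1 ± 10.0 units with MPDC-exo and 109 ± 14.7 units with KPC-exo, or log2 levels of -2.38 and -2.55. The difference of -0.17 was smaller than its software error of 0.28, and the KPC-exo spot had a flagged local background. A second probe, drawn from a clone, gave 6.75 and 9.69 units, neither of them well above background. Like Insr, Slc2a4 lay in the dimmest 25% of measured genes.

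**Figure D2:**
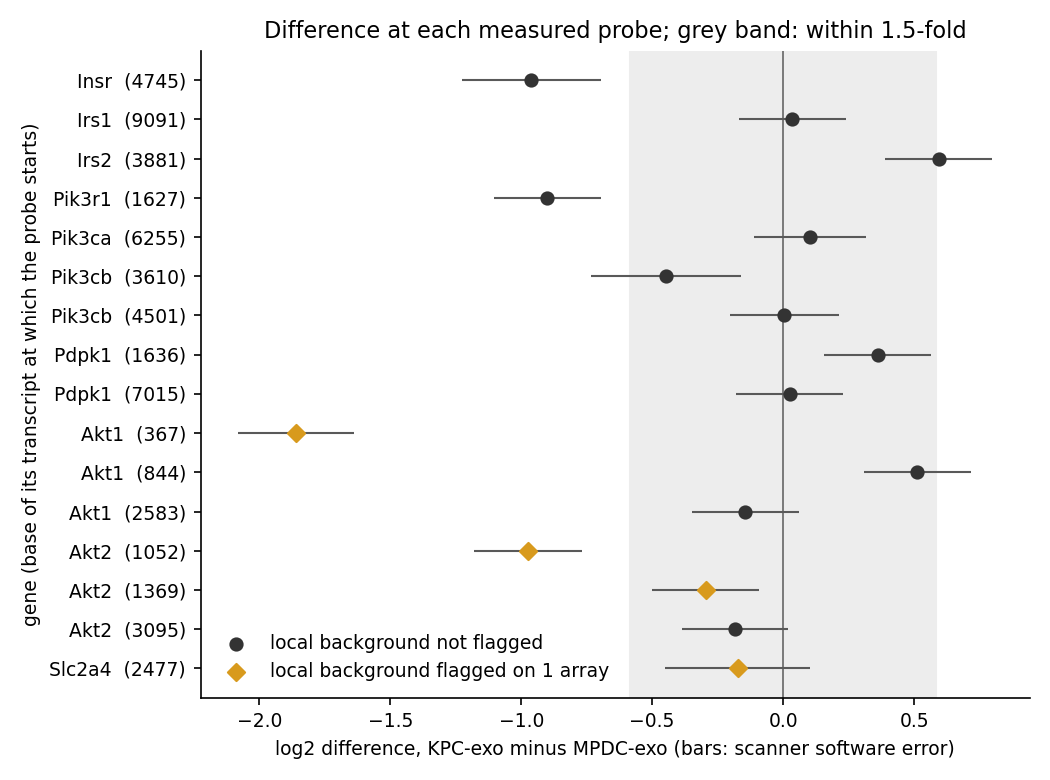
Log2 difference, KPC-exo minus MPDC-exo (horizontal axis), at the 16 measured probes (vertical axis, gene and base of the transcript), with bars for the scanner software's error and the range within 1.5-fold in grey. Insr, Pik3r1 and the upstream probes of Akt1 and Akt2 lie below the grey band and Irs2 at its upper edge, while spike-in centring would move every point up by 1.02.

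Counted by the brightest probe, 2 of the 10 members lay at least 1.5-fold lower and 1 higher, where 3.7% of all 16903 measured genes were that much lower and 3.68% higher. At 2-fold the count was 0 in both directions, where 1.19% of all measured genes lay lower and 0.728% higher. By probes, 4 of the 16 measured ones were at least 1.5-fold lower and 1 higher, against 5.41% and 4.65% of the 24962 measured probes. The median difference of the 10 members was -0.07, beside 0.06 over all measured genes, and 8 members lay below that median of all genes. Among these, Irs1, Pdpk1 and Pik3cb were at -0.02, -0.03 and -0.05 from it, which is less than their software errors. With the measured probe nearest the 5′ end in place of the brightest, a choice made after the data were seen, 4 members lay at least 1.5-fold lower (Insr, Pik3r1, Akt1 and Akt2) and 1 higher, where 6.56% and 4.79% of all measured genes did. The members are too few for these shares to be read as more than counts.

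**Figure D3:**
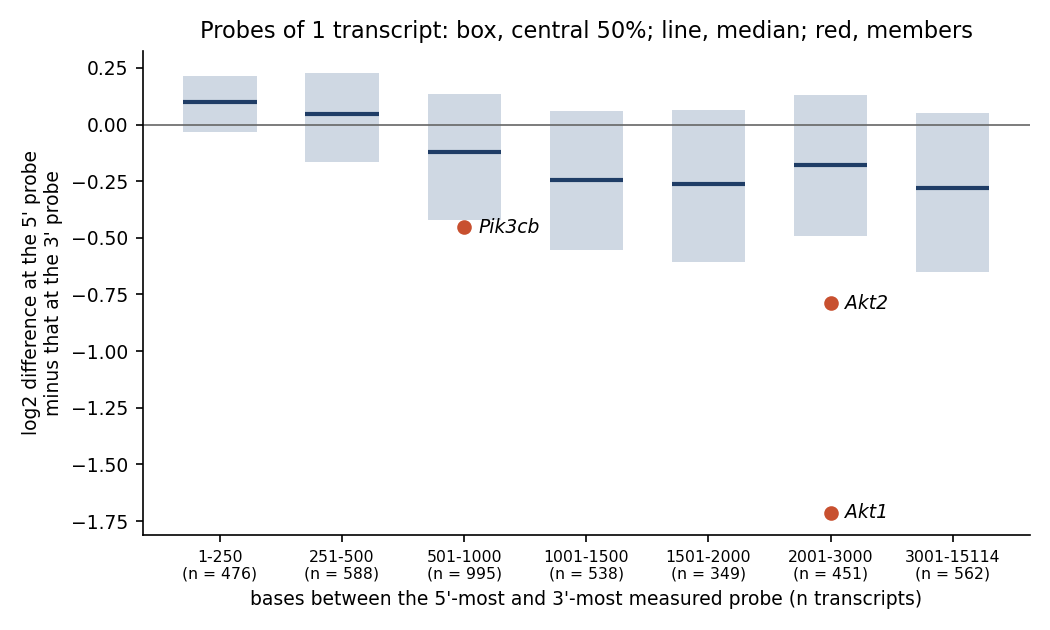
Difference at the measured probe nearest the 5′ end minus that at the probe nearest the 3′ end of the same transcript (vertical axis, log2), by the number of bases between them (horizontal axis), with boxes for the central 50% of transcripts, lines for their median and red points for members. Medians are above 0 for probes up to 500 bases apart and below 0 beyond that, and Akt1, Akt2 and Pik3cb lie below the boxes of their distance.

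For 3 members, 2 measured probes are placed on 1 transcript, and in each the upstream probe had the lower difference. It was lower by 1.71 in Akt1 over 2216 bases, by 0.79 in Akt2 over 2043 bases and by 0.45 in Pik3cb over 891 bases. Centring an array by any constant leaves these values as they are. The same direction was common over the whole array. Where probes were over 2000 and up to 3000 bases apart, the median of 451 transcripts was -0.18, with a central 50% from -0.49 to 0.13. Where they were over 500 and up to 1000 bases apart, the median of 995 transcripts was -0.12, with a central 50% from -0.42 to 0.13. Of the 2895 transcripts with probes over 500 bases apart, 9 reached the value of Akt1, 11.0% that of Akt2 and 30.2% that of Pik3cb. In contrast, among 1064 transcripts with probes within 500 bases, 38.9% had the lower difference upstream and the median was 0.07. Member probes placed on other transcripts did not all keep the order when set by genomic position. The third Akt1 probe lies upstream of the one at base 2583 but had the higher difference, 0.51 against -0.14. The upstream Pdpk1 probe was also higher, 0.36 against 0.02, while the Akt2 probe at base 1369 kept the order. The part of this difference along transcripts in the values of Akt1, Akt2, Pik3cb and Pik3r1 was not tested. In Akt1, Akt2 and Pik3cb the upstream probe was also the dimmer one, and position and brightness were not separated. In all 4 members with several measured probes the brightest probe was also the most downstream, so the counts by brightest probe use the downstream value.

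The other genes of the pathway, from a list of 72 in 7 role groups, lay mostly within 1.5-fold at their brightest measured probe. Of the 62 measured, 4 were at least 1.5-fold higher and 0 lower, beside 3.68% and 3.7% of all measured genes, and their median was 0.07 beside 0.06. Of these 4, 3 belong to the adaptors at the receptor and 1 is a class II phosphoinositide 3-kinase. Sh2b2, an adaptor that binds the active receptor, had log2 levels of 1.04 and 1.93 and a difference of 0.89, but 0.0077 at a second, dimmer probe. Gab1, a docking protein, and Cbl, a ubiquitin ligase recruited to receptors, had differences of 0.63 and 0.60 at 1 measured probe each. Pik3c2a had 0.73 at a dim probe of a clone and -1.37 at an also dim probe of its main transcript, so its probes give no single direction. The split of 4 higher and 0 lower depended on the processing. It was 2 higher and 1 lower with median centring, the percentile over detected probes and cyclic loess. Of all measured genes, 2.89%, 2.86% and 2.68% lay higher in these settings and 4.37%, 4.39% and 4.57% lower. With quantile normalization and the series value table the split was 4 higher and 1 lower, beside 3.22% and 3.24% of all genes higher and 4.02% and 4.00% lower. At the probe nearest the 5′ end it was 5 higher and 6 lower, beside 4.79% and 6.56% of all genes. With normexp it was 2 higher and 0 lower, beside 1.63% and 2.56%. With spike-in centring it was 60 higher and 0 lower, beside 94.0% and 0.31%.

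Among the brakes at the receptor, 0 of 6 measured genes passed 1.5-fold, where 3.68% of all measured genes lay that much higher and 3.7% lower. The role groups are too small for their counts to be read against these shares. Grb14, an inhibitor of receptor activity, had 0.41 at its brighter probe and -0.22 at the other, and Enpp1, a membrane protein that inhibits the receptor, had 0.21 and 0.30. Of the 7 other measured phosphoinositide 3-kinase genes, Pik3r3, a further regulatory subunit, had the lowest difference at the brightest probe, -0.47, while dimmer probes of Pik3c2a and Pik3r2 lay at -1.37 and -1.39. The lipid phosphatases, which remove the signal of the kinase, had 0 of 5 past 1.5-fold, with Inpp5k at 0.53 and Inppl1, which encodes SHIP2, at -0.32 and -0.30 at its 2 probes. Of the 10 Akt regulators, Phlpp1, an Akt phosphatase, had 0.40 and Trib3, a pseudokinase that binds Akt, had -0.38. Among 10 measured Akt substrates, Gsk3b had -0.54 and Gsk3a 0.39, both within 1.5-fold at the brightest probe. Genes of transporter traffic and glucose use were all within 1.5-fold at the brightest probe, 15 of 15 measured. Hk2, the insulin-responsive hexokinase, was at 0.31 and Hk1 at -0.25. Other measured probes went past 1.5-fold, with Hk1 at 0.80 and Lnpep, chosen after its values were seen, at -0.90.

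**Figure D4:**
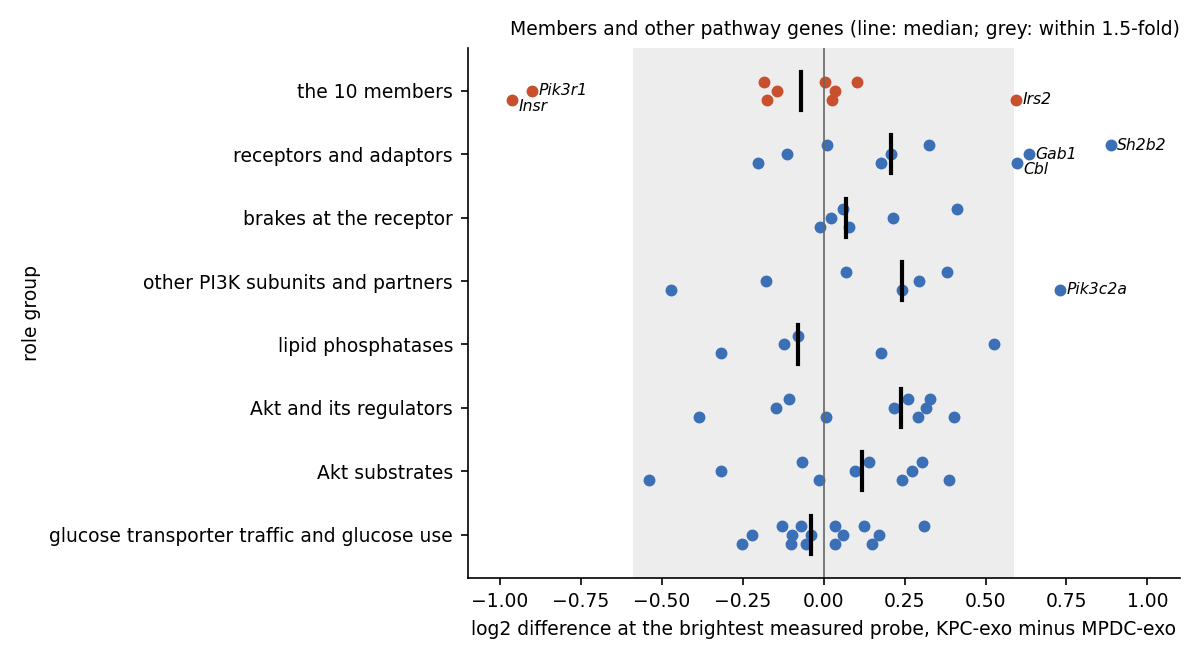
Log2 difference at the brightest measured probe (horizontal axis) for the 10 members and the 62 other measured pathway genes by role (vertical axis), 1 point per gene, with black lines for medians and the range within 1.5-fold in grey. Insr and Pik3r1 lie below the band and Irs2, Sh2b2, Gab1, Cbl and Pik3c2a above it, and spike-in centring would shift all points up by 1.02.

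Between probes placed on 1 transcript, the same order was seen in the wider pathway. On the list, 12 transcripts had measured probes over 500 bases apart, and the upstream probe had the lower difference in 12 of 12. Their median was -0.31. The whole array had the lower difference upstream in 66.8% of 2895 transcripts, with a median of -0.20. The distances were unlike: all of the 12 except Stx4a, at 739 bases, had probes over 1000 bases apart. In the whole array's distance ranges beyond 1000 bases, medians ran from -0.18 to -0.28 and shares from 64.08% to 71.35%. Pairs placed on different transcripts, such as those of Grb14, are not among the 12. Gsk3b, whose kinase is switched off by Akt, had differences of -0.66 at base 2092, -0.54 at base 3309 and -0.03 at base 8226. Pik3r2, which encodes p85 beta and was chosen after its values were seen, had -1.39 at base 865 and 0.29 at base 3006. Both genes were near 0 or above it at their most downstream probe and past 1.5-fold lower at the most upstream.

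**Figure D5:**
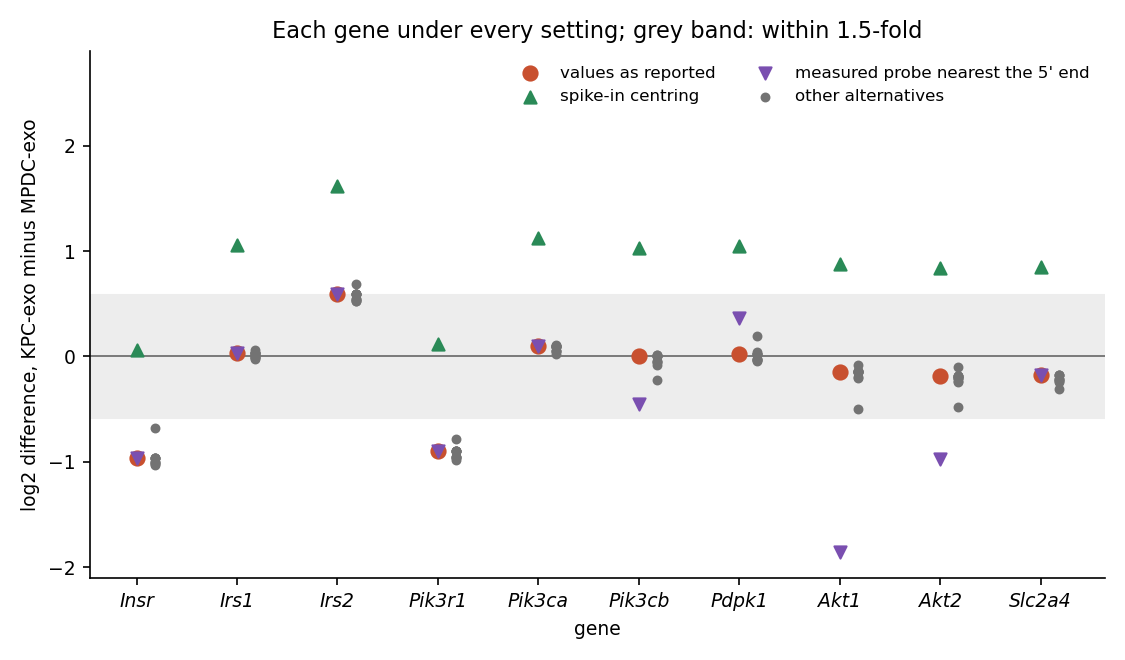
Log2 difference (vertical axis) of each of the 10 genes (horizontal axis) as reported, with spike-in centring, at the measured probe nearest the 5′ end, and under the other alternatives, with the range within 1.5-fold in grey. Insr and Pik3r1 stay below the band in the settings that gave them a value other than spike-in centring, Insr having none under the stricter filter on dim probes, and Akt1 and Akt2 fall below it only at the probe nearest the 5′ end.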

How the data were processed

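Each array was hybridised with Cy3-labelled cRNA of 1 culture, per the labels' protocols. The scanner output as deposited is linear spot intensity, made with Agilent Feature Extraction 10.7.1.1 (per the submitters' processing notes and the file headers), which subtracted background and removed spatial trends but did not normalize between arrays. The series value table holds deposited log2 values, and how the authors made them is unknown here. Both its columns correlated with the scanner values at 1.00 and had a median of 4.88, and it served as an alternative only. Its member differences lay close to those with quantile normalization, as with Insr at -0.998 in both, so these alternatives are not separate checks.

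Spots flagged as non-uniform or population outliers were left out, 102 of MPDC-exo and 166 of KPC-exo, none of them of a member. Then log2 of the processed signal was averaged per probe and the 75th percentile of the array subtracted. A gene is represented by its brightest probe well above background on both arrays. The software error adds a proportional 10% to background noise. Spots of 292 probes printed 10 times had a median SD of 0.03 on either array, and of the 10 dim ones 0.16 and 0.12. None of these errors holds variation between cultures, and the number of arrays limits the precision. Names of 32989 probes came from RefSeq (GRCm38.p6), and positions are on mm9.

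The members, the lists and the threshold of 1.5-fold were chosen with earlier results of these data known. Named pathway genes are the 2 largest differences of each role group and any gene with all measured probes past 1.5-fold. Sequences were to be shown where the translated probe matched the protein, but protein sequences were not used here, so coding probes were chosen from knowledge of the proteins. Alternatives changed the background correction, the centring, the normalization between arrays, the filter on dim or flagged spots, the probe used per gene, the threshold and the source table. Steps were tested on simulated data. Python 3.11.15, numpy 2.4.6, pandas 2.3.3, matplotlib 3.10.9, R 4.3.3 and limma 3.58.1 were used.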

Additional observations from a re-analysis of the deposited data

How the results depend on the processing

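No paired analysis was possible because each group has 1 array. The count of members at least 1.5-fold higher, 1 as reported, was 0 with quantile normalization, cyclic loess, median centring, the percentile over detected probes, the series value table and a 2-fold threshold, and 8 with spike-in centring. Of all measured genes, 94.0% lay that much higher with spike-in centring and 0.728% past 2-fold. With the other settings just named, between 2.68% and 3.24% did. The count at least 1.5-fold lower, 2 as reported, was 0 with spike-in centring and at 2-fold, 1 with the stricter filter on dim probes, and 4 with the measured probe nearest the 5′ end, an alternative chosen after seeing the data. The shares of all measured genes lower in these settings were 0.31%, 1.19%, 2.28% and 6.56%. The members' median, -0.07 as reported beside 0.06 over all measured genes, was 0.95 with spike-in centring, where that of all genes was 1.08. For the members it was 0.015 with the stricter filter, 0.0039 with background-flagged spots left out, -0.20 with the mean over probes and -0.31 at the probe nearest the 5′ end. In these settings the median of all genes was 0.056, 0.055, 0.047 and 0.040. With no filter on dim probes the members' median of -0.07 lay above that of all genes, -0.15. Pathway list genes past 1.5-fold in either direction, 4 as reported, numbered 2 with normexp, 2 with the mean over probes, 8 with no filter, 11 at the probe nearest the 5′ end and 60 with spike-in centring. The shares of all genes higher and lower were 1.63% and 2.56% with normexp, 3.58% and 3.76% with the mean over probes and 8.19% and 7.13% with no filter. At the probe nearest the 5′ end they were 4.79% and 6.56%, and with spike-in centring 94.0% and 0.31%. Spike-in centring, over 7 probes, adds a constant, and with it Insr had 0.061, Pik3r1 0.12 and the upstream Akt2 probe 0.050. Of 295 values of single members and probes under the alternatives, 259 moved by less than their software error. A further 31 moved by more, 10 of these outside spike-in centring, and none of the 31 was a value past 1.5-fold as reported that changed sign. Some of the 31 crossed 1.5-fold, such as Irs1 at 1.06 with spike-in centring and Akt1 at -1.86 at the probe nearest the 5′ end. The other 5 were values past 1.5-fold as reported that changed sign, all with spike-in centring. They are those of Insr and Pik3r1, each counted as a gene and as its probe, and of the upstream Akt2 probe. Sign changes of values within 1.5-fold, such as those of Irs1, Pik3cb, Pdpk1, Akt1, Akt2 and Slc2a4, are not among these 5. The 295 count a gene and its brightest probe separately, although their values are mostly the same. Some settings also could not move some values, such as the mean over probes for genes with 1 measured probe. The 259 are therefore not separate checks. The lower difference upstream, in 66.8% of transcripts, was in 72.7% with normexp, 67.7% with loess, 66.9% with background-flagged spots left out and 61.8% with the stricter filter. The median upstream minus downstream, -0.20 as reported, was -0.24, -0.21, -0.20 and -0.12 in these settings. Dim signal limits Insr, Slc2a4 and the upstream probes of Pik3cb and Akt1, which lie in the dimmest 25%.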

Other observations

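Several pathway genes had measured probes on opposite sides of 0, beyond those named above. Hk1, a hexokinase, had -0.25 at base 4126 of a deposited mRNA and 0.80 at base 3844 of a RefSeq transcript, both among the brightest 25% of genes. Inpp5k, a lipid phosphatase, had 0.53 at base 2425 and -0.07 at base 1345. Tbc1d1, a Rab regulator that Akt phosphorylates, and Sos1, an exchange factor for Ras, were chosen after their values were seen. The probes of Tbc1d1 ranged from -0.33 to 0.84 and those of Sos1 from -0.20 to 0.84.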
